A study of Mus musculus with 24 samples.

Results

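The genes described here are 10 genes of red cell maturation: the transcription factors Gata1, Klf1 and Nfe2, the iron carriers Tfrc and Slc25a37, the red cell enzyme Bpgm, and the maturation factors Bnip3l, Trim58, Ube2o and Xpo7. They were listed by name from the 21960 genes of the count table, with earlier results of these data known. Their comparison with all genes is therefore not independent of these data. RNA was sequenced from extracellular vesicles of the blood plasma of male C57BL/6J mice whose bile duct had been ligated, a surgical model of cholestasis, or that had a sham operation. Each of the 4 groups held 6 mice: sham at day 8, ligation at day 8, sham at day 15 and ligation at day 15 after surgery. No transgene, drug or other allele was named for any group, and the shared treatment field named ligation for the sham animals too, so groups were taken from the sample titles. The labels gave liver as the tissue, but the protocol described vesicles precipitated from plasma, and such a precipitate carries RNA of many blood and tissue cells. In such bulk RNA, fewer cells of a type and less RNA per cell cannot be told apart.

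Red cells form in bone marrow, and in mice also in the spleen, from precursors that make hemoglobin, divide a last few times, condense and expel the nucleus, and enter the blood as reticulocytes. Reticulocytes then clear their mitochondria, ribosomes and most other proteins. GATA1 and KLF1 are DNA-binding factors that switch on globin, heme and membrane genes, and NF-E2, whose larger subunit Nfe2 encodes, acts at globin genes and is also needed for platelet formation. The other genes serve the steps that follow: iron is brought in by the transferrin receptor (Tfrc) and carried into mitochondria by mitoferrin-1 (Slc25a37), mitochondria are cleared through NIX (Bnip3l), and UBE2O marks surplus proteins for the proteasome. Mature red cells and reticulocytes have no transcription of their own, so RNA in them was made earlier, in nucleated precursors.

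The DNA before the start of 4 of the genes is shown because Gata1 and Klf1 encode factors whose motifs were searched for, and Trim58 and Tfrc had the highest fitted day 8 changes among the 3 low genes and the 7 tested genes. The 250 bases before the start are from RefSeq (GRCm38.p6), 5′ to 3′ on the gene's strand, with matches to a motif in capitals.
Trim58: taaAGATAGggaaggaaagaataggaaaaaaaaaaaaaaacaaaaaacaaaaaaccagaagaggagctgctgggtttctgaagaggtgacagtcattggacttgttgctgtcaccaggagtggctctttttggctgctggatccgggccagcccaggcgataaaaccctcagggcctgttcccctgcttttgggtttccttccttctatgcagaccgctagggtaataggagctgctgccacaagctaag
Klf1: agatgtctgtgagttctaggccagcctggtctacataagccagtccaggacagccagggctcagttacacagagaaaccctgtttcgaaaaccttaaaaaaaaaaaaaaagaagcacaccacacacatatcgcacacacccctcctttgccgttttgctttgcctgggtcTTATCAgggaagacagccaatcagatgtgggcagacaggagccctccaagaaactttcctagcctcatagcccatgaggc
Gata1: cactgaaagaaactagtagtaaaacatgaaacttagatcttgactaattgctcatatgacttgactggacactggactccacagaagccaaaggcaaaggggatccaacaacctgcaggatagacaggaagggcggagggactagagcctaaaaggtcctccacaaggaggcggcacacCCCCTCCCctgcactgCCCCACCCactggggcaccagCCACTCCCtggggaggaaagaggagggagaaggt
Tfrc: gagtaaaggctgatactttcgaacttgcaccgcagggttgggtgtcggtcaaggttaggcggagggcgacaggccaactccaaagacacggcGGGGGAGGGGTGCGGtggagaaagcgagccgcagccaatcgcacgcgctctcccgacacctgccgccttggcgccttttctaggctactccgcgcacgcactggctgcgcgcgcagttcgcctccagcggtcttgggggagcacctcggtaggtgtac
The windows are chr11:58640215-58640464 on the plus strand for Trim58, chr8:84901732-84901981 on the plus strand for Klf1, chrX:7967911-7968160 on the minus strand for Gata1 and chr16:32608646-32608895 on the plus strand for Tfrc. Capitals in Trim58 and Klf1 mark a GATA motif (GATA after A or T and before A or G, on either strand), which 26.5% of 32851 such windows hold. It began 247 bases before the start of Trim58 and 80 bases before that of Klf1. Capitals in Gata1 and Tfrc mark a CACCC-type motif of the kind KLF1 binds (CCNCNCCC on either strand, overlapping matches counted), which 45.9% of windows hold. Gata1 had 3 matches, at 71, 55 and 34 bases before the start, and the first Tfrc start also had 3, which overlap. The NF-E2 core (TGAGTCA on either strand) is in 4.46% of windows and in none of the 6 windows of the 5 genes with an entry. Distances are to the RefSeq starts, which for some genes differ from the GENCODE coordinates given below. The Gata1 window lies inside the GENCODE span of that gene, and the Klf1 window runs past the GENCODE start. These are matches of letters, and no binding was measured.

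In GENCODE M21 (GRCm38) all 10 are protein-coding genes. Xpo7 (ENSMUSG00000022100, chr14:70654246-70766628), Bnip3l (ENSMUSG00000022051, chr14:66985239-67008877) and Slc25a37 (ENSMUSG00000034248, chr14:69241848-69285112) lie on the minus strand of the same chromosome. Also on the minus strand are Gata1 (ENSMUSG00000031162, chrX:7959260-7978071), Ube2o (ENSMUSG00000020802, chr11:116537740-116581447) and Nfe2 (ENSMUSG00000058794, chr15:103248212-103258403). On the plus strand are Trim58 (ENSMUSG00000037124, chr11:58640465-58652404), Klf1 (ENSMUSG00000054191, chr8:84901928-84905291), Bpgm (ENSMUSG00000038871, chr6:34476207-34505613) and Tfrc (ENSMUSG00000022797, chr16:32608920-32632794).

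Total counts ranged from 101733 to 824640 in sham and 167939 to 937963 in ligated libraries at day 8, and from 157133 to 351201 and 315404 to 465744 at day 15. Among them, Lars2 alone held between 31.6% and 52.7% of the counts of a library; whether those reads come from its messenger RNA was not tested, and percentages of counts include them. At day 8, libraries 1 to 3 of both groups were shallower than libraries 4 to 6. The 10 genes together gave 140 to 2321 counts per library, or 0.133% ± 0.0387 (SD, n = 6) of counts in sham and 0.231% ± 0.0565 in ligated libraries at day 8, and 0.126% ± 0.0656 and 0.153% ± 0.0499 at day 15. Globin transcripts made up 6.80% ± 0.926 of counts in sham and 10.7% ± 3.30 in ligated libraries at day 8, and 7.61% ± 2.47 and 6.21% ± 2.05 at day 15. Levels below are counts scaled to library size (CPM) after TMM scaling, a correction for differences in composition, and a gene was called where edgeR's quasi-likelihood test gave an adjusted p under 0.05 over all genes tested.

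Per kilobase of the longest principal transcript, over all 24 libraries, Bpgm had the highest level (210 ± 98.6 CPM per kilobase, mean ± SD). Bnip3l (91.5 ± 34.2), Slc25a37 (83.7 ± 47.3), Ube2o (61.5 ± 35.0), Nfe2 (45.9 ± 17.6) and Xpo7 (38.5 ± 27.7) followed, on the same CPM per kilobase scale. The transferrin receptor Tfrc (11.7 ± 8.04), Gata1 (8.89 ± 8.17), Klf1 (6.12 ± 6.21) and Trim58 (5.79 ± 6.55) were lowest. Apart from Bpgm against Bnip3l, the means of neighbours in this order differed by less than the larger of their 2 SDs, though Xpo7 against Tfrc differed by more than the SD of Tfrc. Gata1, Klf1 and Trim58 had 149, 65 and 100 counts in all libraries together and did not pass the filter on low counts, so 7 of the 10 genes were among the 4112 genes tested. The 3 others are given from a fit with a looser filter that kept 11455 genes.

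**Figure D1:**
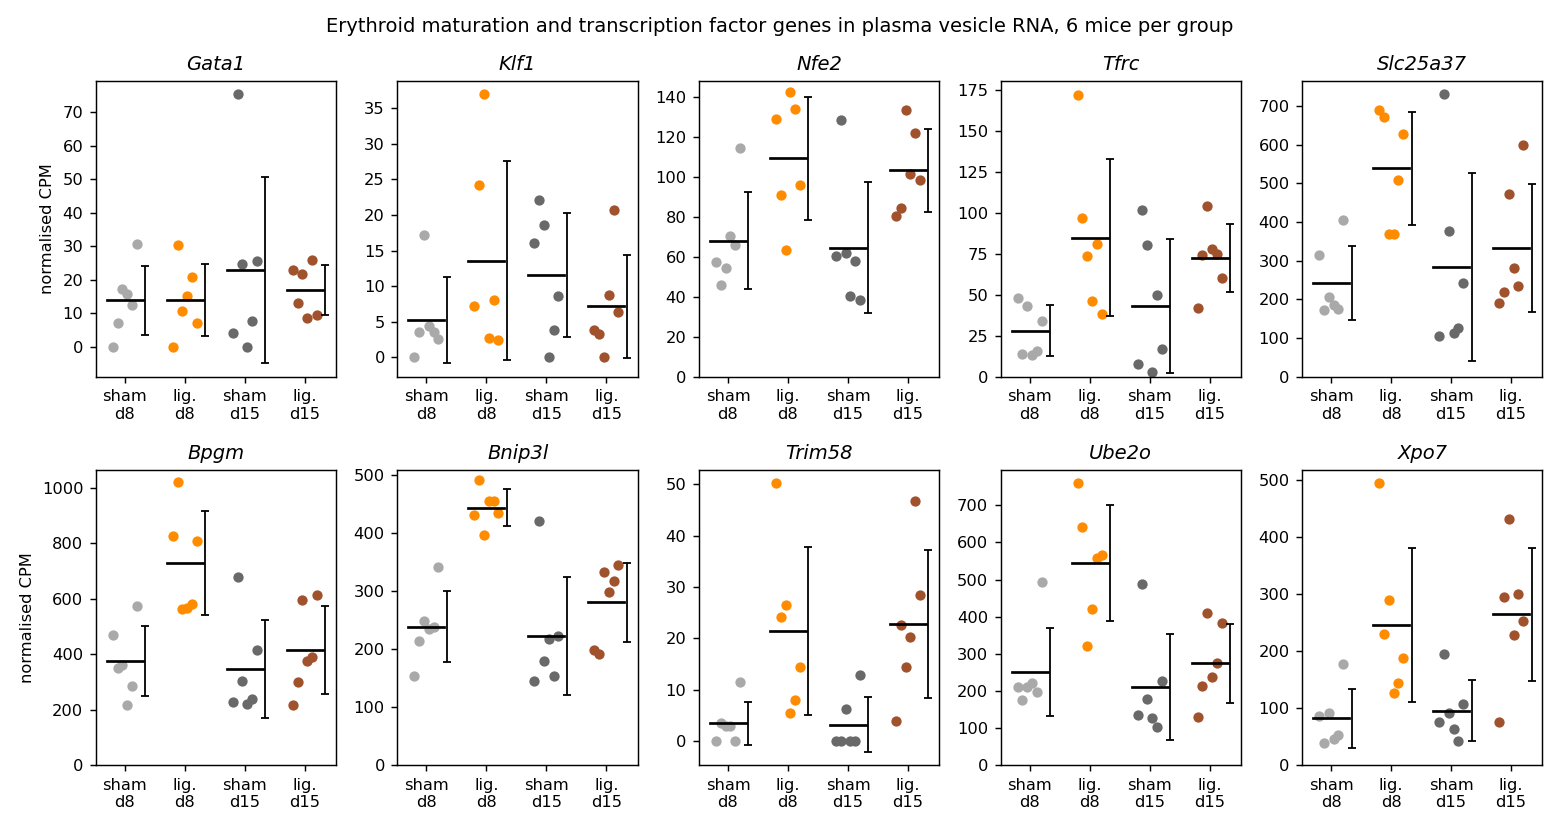
Normalised CPM (vertical axis, linear, a separate scale for each gene) of the 10 genes in the 24 libraries by group, sham and ligation (lig.) at days 8 and 15 (d8, d15). Points are libraries, lines are means and bars are SD (n = 6). The 6 ligated day 8 libraries lie above all 6 sham libraries for Bnip3l, and the Gata1 groups overlap throughout.

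At day 8, Xpo7 and Bnip3l rose in ligated mice and none of the 10 genes fell. All 7 tested genes had a log2 fold change above 0, between 0.65 and 1.58, with a median of 1.09 against 0.02 for all 4112 genes. The 2 called genes compare with 2.77% of all genes called higher and 0.365% called lower. Each of the 7 had an unadjusted p under 0.05 in edgeR's test, as did 588 of the 4112 genes, and in each of the 7 all 6 ligated libraries lay above the sham median. Bnip3l was the 1 gene of the 7 whose ligated libraries all lay above all sham libraries, a separation that 1.97% of genes showed.

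At day 15, Xpo7 alone among the 7 was called, and it was higher, where 3.48% of all genes were called higher and 1.07% lower. The median log2 fold change of the 7 was 0.40, against -0.02 for all genes. None of the 7 had separate groups at day 15, which 2.38% of genes had. Averaged over both days, 6 of the 7 rose (Xpo7, Bnip3l, Bpgm, Tfrc, Ube2o and Nfe2), where 7.1% of all genes were called higher and 3.5% lower, and the median was 0.70 against 0.00. The average uses the same libraries as both single-day comparisons. With library totals in place of TMM none of the 7 was called at day 8 (edgeR adjusted p = 0.0650 for Xpo7 and 0.0981 for Bnip3l). Over both days Xpo7 and Tfrc were called with library totals. DESeq2 called 5 of the 7 at day 8, adding Bpgm, Tfrc and Ube2o. The share of all genes called in these fits is not given, so these counts cannot be set against it.

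**Figure D2:**
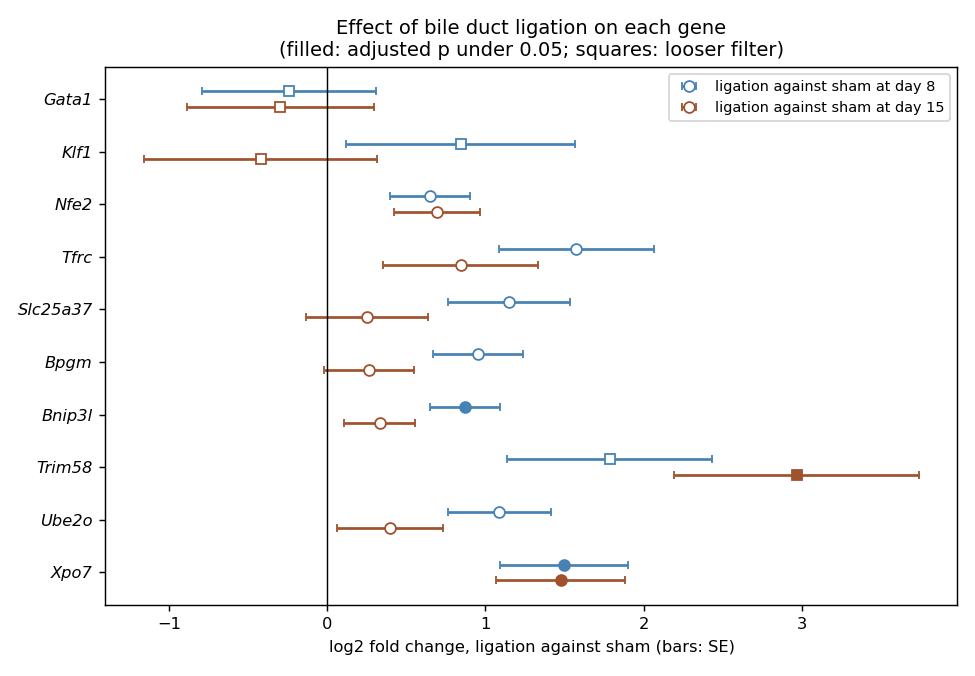
Fitted log2 fold change of ligation against sham for each gene (horizontal axis), at day 8 (blue) and day 15 (brown), with SE bars derived from edgeR's F-test. Filled symbols have an adjusted p under 0.05, and squares come from the fit with the looser filter. Xpo7 has nearly the same value at both days (1.49 and 1.48), and Gata1 lies near 0 at both.

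Among the transcription factors, Gata1 and Klf1 showed no change that could be detected at their depth, while Nfe2 rose in the average of both days. Gata1 had 0 to 30.5 CPM (median 14.2) in sham and 0 to 30.3 (median 12.8) in ligated libraries at day 8. The day 15 values were 0 to 75.2 (median 16.2) in sham and 8.71 to 25.9 (median 17.3) in ligated libraries. The groups overlapped at both days, and no ligated library lay above all sham libraries. The fitted log2 fold change was -0.24 (SE 0.55, edgeR adjusted p = 0.942) at day 8 and -0.30 (SE 0.59, adjusted p = 0.887) at day 15, and without sham library 2 at day 15 the latter was 0.64.

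Klf1 had 0 to 17.2 CPM (median 3.54) in sham and 2.40 to 37.0 (median 7.58) in ligated libraries at day 8. Those of day 15 were 0 to 22.1 (median 12.3) in sham and 0 to 20.8 (median 5.08) in ligated libraries. These levels rest on few reads, and a library with 0 counts still allows up to 3. The log2 fold change was 0.84 (SE 0.72, adjusted p = 0.804) at day 8 and -0.42 (SE 0.74, adjusted p = 0.866) at day 15 in edgeR's test with the looser filter.

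Nfe2 had 45.8 to 114 CPM (median 61.6) in sham and 63.4 to 142 (median 113) in ligated libraries at day 8. At day 15 it had 38.5 to 128 (median 59.0) in sham and 80.2 to 133 (median 99.9) in ligated libraries. Sham library 6 at day 8 and sham library 2 at day 15 lay high among the ligated libraries, and 3 of 6 ligated libraries at day 8 and 1 of 6 at day 15 lay above every sham library. The change was alike at the 2 days, with a log2 fold change of 0.65 (SE 0.26, edgeR adjusted p = 0.217) at day 8 and 0.70 (SE 0.27, adjusted p = 0.147) at day 15. Averaged over days Nfe2 rose by 0.67 on the log2 scale (SE 0.19, adjusted p = 0.0182), and the call held in each of 24 fits without 1 library. For day 15 alone, Nfe2 was called in 1 of 12 such fits, that without sham library 2 (log2 1.01, edgeR adjusted p = 0.0166). The adjusted p reached 0.288 over the 12.

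Both iron carriers had higher fitted values in ligated mice at day 8, and Tfrc rose in the average of both days. Tfrc had 13.0 to 47.8 CPM (median 25.2) in sham and 38.3 to 172 (median 77.7) in ligated libraries at day 8. By day 15 it had 2.89 to 102 (median 33.6) in sham and 42.0 to 105 (median 74.9) in ligated libraries. The sham group was the more scattered at day 15, and its libraries reached nearly as high as the ligated ones. Its log2 fold change was 1.58 (SE 0.49, edgeR adjusted p = 0.0770) at day 8, 0.84 (SE 0.49, adjusted p = 0.387) at day 15 and 1.21 (SE 0.35, adjusted p = 0.0224) over both days.

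Slc25a37 had 172 to 406 CPM (median 195) in sham and 370 to 689 (median 567) in ligated libraries at day 8. The day 15 range was 105 to 730 (median 185) in sham and 191 to 599 (median 257) in ligated libraries. Its highest value at day 15 was thus in a sham library, library 2. On the log2 scale the fold change was 1.15 (SE 0.39, edgeR adjusted p = 0.113) at day 8, 0.25 (SE 0.39, adjusted p = 0.791) at day 15 and 0.70 (SE 0.27, adjusted p = 0.102) over both days. The average was called in 1 of 24 fits without 1 library, that without sham library 2 of day 15 (log2 0.98, edgeR adjusted p = 0.00605). Over the 24 fits it ran from 0.57 to 0.98, with an adjusted p of up to 0.195.

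Bpgm makes 2,3-bisphosphoglycerate, the small molecule that lowers the oxygen affinity of hemoglobin. It had 219 to 574 CPM (median 356) in sham and 565 to 1022 (median 695) in ligated libraries at day 8. Levels at day 15 were 220 to 677 (median 271) in sham and 218 to 615 (median 382) in ligated libraries. At day 8, 4 of 6 ligated libraries lay above every sham library, and at day 15 none did. Bpgm had a log2 fold change of 0.95 (SE 0.28, edgeR adjusted p = 0.0595) at day 8 and 0.26 (SE 0.29, adjusted p = 0.688) at day 15. The average over days was 0.61 (SE 0.20, adjusted p = 0.0499), close to the threshold: it stayed called in 8 of 24 fits without 1 library, with an adjusted p of up to 0.0957.

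Among the maturation factors, Bnip3l rose at day 8 and Xpo7 at both days. Bnip3l, the mitophagy receptor NIX, had 153 to 341 CPM (median 237) in sham and 396 to 490 (median 445) in ligated libraries at day 8. The day 15 levels were 145 to 420 (median 198) in sham and 191 to 345 (median 308) in ligated libraries. The ligated day 8 libraries were tightly grouped and stood clear of sham, whereas at day 15 no ligated library lay above all sham libraries. Its fitted log2 fold change was 0.87 (SE 0.22, edgeR adjusted p = 0.0257) at day 8 and 0.33 (SE 0.22, adjusted p = 0.470) at day 15, and the average was 0.60 (SE 0.16, adjusted p = 0.0122). The day 8 call was lost without ligated library 2, sham library 4 or sham library 5 (adjusted p up to 0.0562, log2 fold change 0.78 to 0.98 over the 12 fits).

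Xpo7 encodes exportin 7, a nuclear export receptor that takes histones out of the nucleus as it condenses. It had 38.7 to 178 CPM (median 69.7) in sham and 127 to 495 (median 209) in ligated libraries at day 8. Sham mice had 42.4 to 195 (median 84.5) and ligated mice 76.4 to 433 (median 274) at day 15. The ligated library 1 of day 15 lay within the sham range, and the other 5 lay above all 6 sham libraries. Xpo7 rose by 1.49 on the log2 scale (SE 0.40, edgeR adjusted p = 0.0402) at day 8, by 1.48 (SE 0.41, adjusted p = 0.0298) at day 15 and by 1.49 (SE 0.29, adjusted p = 0.00089) over both days. The average stayed called in all 24 fits without 1 library.

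The calls of Xpo7 at single days were less firm. At day 8 the call was lost without any of ligated libraries 1 to 3 or sham libraries 1 to 5 (log2 1.19 to 1.94, adjusted p up to 0.118 over the 12 fits). At day 15 it was lost without ligated libraries 2, 3 or 5 or sham libraries 1, 3, 4, 5 or 6 (log2 1.28 to 1.81, adjusted p up to 0.0834). The value at day 8 was 2.20 (SE 0.51, edgeR adjusted p = 0.0323) within libraries 1 to 3 and 0.70 (SE 0.48, adjusted p = 0.624) within libraries 4 to 6.

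Trim58 and Ube2o encode ubiquitin enzymes of maturing erythroid cells; TRIM58 acts on the dynein motor as the nucleus is expelled. Trim58 had 0 to 11.4 CPM (median 2.87, 13 counts in all) in sham and 5.48 to 50.2 (median 19.3, 37 counts) in ligated libraries at day 8. At day 15 it had 0 to 12.8 CPM (median 0, 4 counts, with 4 libraries at 0) in sham and 3.82 to 46.7 (median 21.5, 46 counts) in ligated libraries. All 6 ligated libraries lay above the sham median at both days, and 4 of them at day 8 and 5 at day 15 lay above every sham library. In the fit with the looser filter, where 1.03% of genes were called higher at day 8, 2.56% at day 15 and 3.92% over both days, Trim58 was called at day 15 and over both days. The log2 fold change was 1.78 (SE 0.65, edgeR adjusted p = 0.267), 2.97 (SE 0.77, adjusted p = 0.0215) and 2.38 (SE 0.51, adjusted p = 0.00215) in that order.

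With 4 sham counts at day 15 the size of the Trim58 change is poorly fixed. It ranged from 2.58 to 4.37 on the log2 scale without 1 library, and the call was lost without ligated library 5 or sham libraries 1, 4 or 5 (edgeR adjusted p up to 0.115). The average over days stayed called in all 24 such fits.

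Ube2o had 176 to 492 CPM (median 211) in sham and 322 to 761 (median 561) in ligated libraries at day 8. At day 15 it had 104 to 487 (median 158) in sham and 130 to 411 (median 256) in ligated libraries. As for Slc25a37 and Bpgm, the highest library at day 15 was a sham library. The log2 fold change was 1.09 (SE 0.33, edgeR adjusted p = 0.0641) at day 8, 0.40 (SE 0.33, adjusted p = 0.577) at day 15 and 0.74 (SE 0.23, adjusted p = 0.0389) over both days. The average stayed called in 8 of 24 fits without 1 library (adjusted p up to 0.0739).

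Libraries with the same number deviated together at day 8, where libraries 1 to 3 and 4 to 6 also differed in depth. Both groups had this depth difference, so the check cannot tell matched mice from shared depth. The block was chosen from these same data. It was also fitted at day 15, where 1 of 6 pairs correlated (r over 0.1). With the number as a block in edgeR's fit, 6 of the 7 genes were called higher at day 8, where 4.11% of all genes were. The genes gained were Bpgm (log2 0.98, adjusted p = 0.00798), Tfrc (1.46, 0.0339), Slc25a37 (1.17, 0.0152) and Ube2o (1.11, 0.0164), beside Xpo7 (1.47, 0.00607) and Bnip3l (0.89, 0.0159). Nfe2 was not called (0.63, 0.185). Over both days the block added Slc25a37 (0.83, adjusted p = 0.00952). Within libraries 1 to 3 of day 8 the log2 fold changes of the 7 ran from 0.80 (Nfe2) to 2.20 (Xpo7), and within libraries 4 to 6 from 0.53 (Nfe2) to 1.31 (Tfrc), all above 0. Xpo7 was called within the first 3 libraries and no gene of the 7 within the last 3.

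Globin RNA itself was higher in ligated mice at day 8, so the 7 genes were also scaled to the globin counts of each library, summed over 9 genes. At day 8 this scaling brought Bnip3l to 0.03, Bpgm to 0.05, Ube2o to 0.25, Slc25a37 to 0.28 and Nfe2 to -0.09 on the log2 scale, and no gene of the 7 was called, with 1.26% of all genes called higher. Tfrc (0.72, SE 0.47) and Xpo7 (0.62, SE 0.34, edgeR adjusted p = 0.128) kept the highest values. On this scale the median of all genes was -0.80 at day 8 and 0.07 at day 15, against 0.02 and -0.02 with TMM.

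At day 15, where globin RNA was called in neither direction, the scaled values were above the unscaled ones for all 7. Xpo7 rose by 1.63 (SE 0.35, edgeR adjusted p = 0.00277), where 2.94% of all genes were called higher. Per 1000 globin counts, Xpo7 had 0.711 to 1.49 counts (median 1.29) in sham and 1.53 to 5.33 (median 4.01) in ligated libraries at day 15. These groups did not overlap, as was so for 1.9% of genes at day 15 and 0.486% at day 8. At day 8 the same ratio was 0.654 to 2.20 (median 0.990) in sham and 1.18 to 3.18 (median 1.60) in ligated libraries, which overlapped. Averaged over days, Xpo7 was the 1 gene of the 7 called on the globin scale (log2 1.13, SE 0.25, adjusted p = 0.00249, with 2.63% of genes called higher), and Trim58 in the fit with the looser filter had 2.11 (adjusted p = 0.00795).

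**Figure D3:**
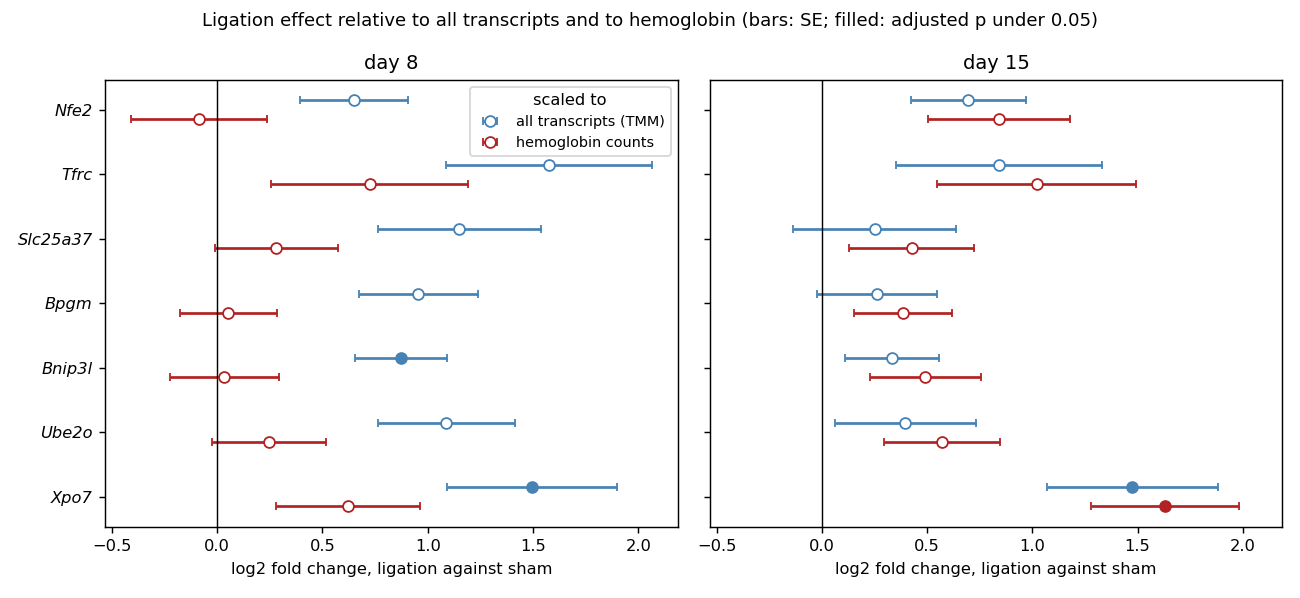
Log2 fold change of ligation against sham (horizontal axis, SE bars) for the 7 tested genes at day 8 (left) and day 15 (right), scaled to all transcripts by TMM (blue) or to globin counts (red). Filled symbols have an adjusted p under 0.05. At day 8 the red points of Bnip3l, Bpgm and Nfe2 lie at 0.03, 0.05 and -0.09, and at day 15 the red Xpo7 point lies at 1.63.

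Whether the effect of ligation changed between days was tested directly, and the change was called for none of the 7 genes and for none of the 4112 (0% of genes), although 234 genes had an unadjusted p under 0.05 in edgeR's test and DESeq2 called 1 gene, which was none of the 7. The day 15 effect minus the day 8 effect ran from -0.90 (Slc25a37, SE 0.54) to 0.05 (Nfe2, SE 0.37) on the log2 scale, with Xpo7 at -0.02 (SE 0.56). With SEs of this size, equal effects are not shown. In sham mice, day 15 against day 8 gave no call among the 7 or among all genes (0%); no gene of the 7 but 439 genes in all had an unadjusted p under 0.05, and DESeq2 called 5 genes, none of them among the 7. In ligated mice, 4.35% of all genes were called between days and none of the 7. Ube2o (-0.98, SE 0.33, edgeR adjusted p = 0.0880), Bnip3l (-0.66, SE 0.22, adjusted p = 0.0867) and Bpgm (-0.80, SE 0.28, adjusted p = 0.108) had an unadjusted p under 0.05, as did 706 of the 4112 genes, with lower values at day 15. On the globin scale these values were -0.24, 0.08 and -0.04, and 1 other gene of the 7 was called. The share of all genes called between days on that scale is not given, so this call cannot be set against it. Per 1000 globin counts, Xpo7 had a median of 1.60 at day 8 and 4.01 at day 15 in ligated mice. In sham mice these medians were 0.990 and 1.29.

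**Figure D4:**
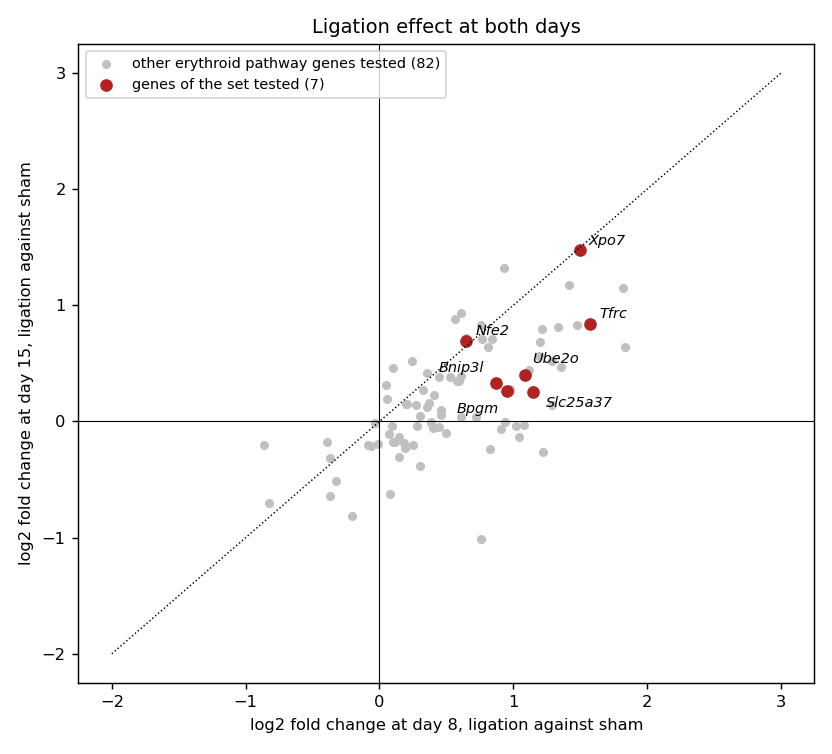
Log2 fold change of ligation against sham at day 8 (horizontal axis) and day 15 (vertical axis) for the 7 tested genes (red, named) and 82 other genes of red cell pathways (grey). On the dotted line both days have equal values. Of the 82 grey genes, 67 lie below it, 71 have a day 8 value above 0 and 46 a day 15 value above 0.

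Within groups, the 7 genes varied together from mouse to mouse. After the group means were subtracted from log2 CPM, the 21 pairs had Pearson's r between 0.257 (Bnip3l and Tfrc) and 0.880 (Bpgm and Slc25a37) over 24 libraries, with a median of 0.650. Bpgm (r = 0.865), Slc25a37 (0.802) and Ube2o (0.776) followed globin RNA most closely, Xpo7 (0.649) and Bnip3l (0.633) less so, and Tfrc (0.407) and Nfe2 (0.280) least. All these points share libraries and their depth, so the correlations are descriptions. Sham library 2 of day 15 had the highest level in its group for 9 of the 10 genes, and sham library 6 of day 8 for 8 of the 10. The first of them had 12.1% globin counts, the highest of the day 15 libraries.

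The gene most like each of the 7 was found by the same measure among all tested genes. For Tfrc it was Ank1 (r = 0.904), which encodes the ankyrin that ties the red cell membrane to its skeleton, and for Slc25a37 it was Epb41 (0.960), the membrane skeleton protein 4.1. Bpgm (0.966) and Ube2o (0.933) were both most like Fam46c, a poly(A) polymerase. Xpo7 was most like the formin Fhdc1 (0.849), Bnip3l most like the actin binder Pfn1 (0.817), and Nfe2 most like the ubiquitin ligase Rnf11 (0.836). Close behind for Nfe2 was Gp1bb, which encodes a platelet adhesion receptor subunit (0.827) and was chosen for mention after its value was seen.

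**Figure D5:**
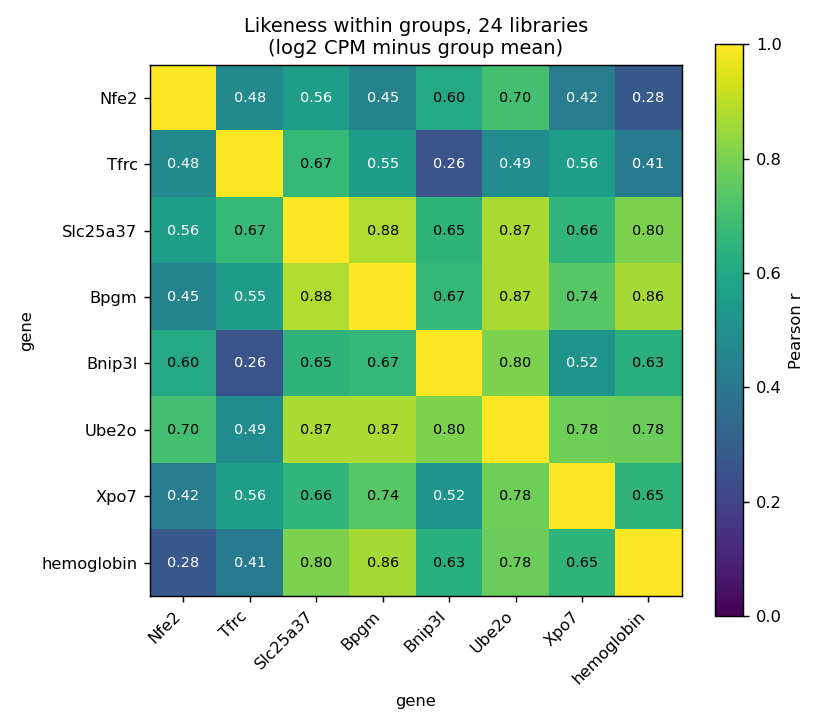
Pearson's r between pairs of the 7 tested genes and with globin RNA (last row and column), from log2 CPM minus the group mean over 24 libraries. Slc25a37, Bpgm and Ube2o form the most alike block (0.87 to 0.88), and Nfe2 and Tfrc have the lowest values with globin RNA (0.28 and 0.41).

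The other genes of the same pathways are given as counts called at each day, to be read against the 2.77% and 3.48% of all genes called higher at days 8 and 15; differences between lists were not tested. Of 18 tested transcription factors and partners none was called at either day, with median log2 fold changes of 0.02 and -0.19 at days 8 and 15. Over both days Bach1, a heme-binding repressor, rose (0.74, SE 0.18, edgeR adjusted p = 0.00614) and Tcf3, a partner of erythroid factors, fell (-0.77, SE 0.21, adjusted p = 0.0159). All 4 tested genes of the globin list, which were globin chains and no chaperone, rose at day 8 and none was called at day 15 (medians 0.98 and -0.10). Of these, Hbb-bs, an adult beta globin, was at 1.08 at day 8 (SE 0.24, edgeR adjusted p = 0.0121). Of 12 membrane and skeleton genes 3 rose at day 8 and none was called at day 15 (medians 1.10 and 0.31).

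Of 4 heme synthesis genes 1 rose at day 8, Alas2, the first enzyme of the erythroid pathway (1.29, SE 0.27, edgeR adjusted p = 0.00836). The list's medians were 1.11 at day 8 and 0.28 at day 15. Of 8 iron genes 2 rose at day 8 (medians 0.35 and 0.23), led by Ncoa4, the receptor that delivers ferritin for breakdown (1.19, SE 0.25, adjusted p = 0.00855). Of 16 genes of organelle removal and ubiquitin 3 rose at day 8 (medians 0.44 and 0.16), led by the conjugating enzyme Ube2l6 (1.15, SE 0.29, adjusted p = 0.0241). Of 15 metabolic and antioxidant genes 4 rose at day 8 and 1 at day 15 (medians 0.60 and 0.35), led by glutathione peroxidase Gpx1 (1.22, SE 0.24, adjusted p = 0.00638) at day 8, with the glycolytic enzyme Pgk1 (0.94, SE 0.24, adjusted p = 0.0197) at day 15. Of 5 genes of erythropoietin and stem cell factor signalling none was called at either day (medians 0.35 and 0.14). Over both days 1 of the 5 was called, Pim1, which rose (0.68, SE 0.20, edgeR adjusted p = 0.0297), where 7.1% of all genes were called higher.

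Markers of other cells were measured beside these changes, and their part in the results was not tested. The summed level of 7 red cell markers, all detected in every group, was 33734 to 50560 CPM in sham and 54888 to 125301 in ligated libraries at day 8, and 31273 to 86258 and 32363 to 69823 at day 15. The day 8 sums did not overlap. Of the 7 red cell markers, 6 were called higher at day 8 and none at day 15, where 2.77% and 3.48% of all genes were. Of 20 platelet and megakaryocyte markers, which matter for Gata1 and Nfe2, 19 had counts and Mmrn1 was at 0 in all groups. Their sum was 1845 to 15562 CPM in sham and 2339 to 16310 in ligated libraries at day 8, and 1572 to 3854 and 2162 to 3463 at day 15. Of these, 18 were tested and none was called at either day or over both, with median log2 fold changes of 0.46, 0.36 and 0.43 in that order. The sum of 12 markers of proliferating cells, which also use Tfrc, was 95.0 to 316 CPM and 162 to 460 at day 8, and 81.1 to 970 and 155 to 343 at day 15, in the same order.

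The summed level of the 15 hepatocyte markers did not overlap between the groups. It was 33.8 to 137 CPM in sham and 442 to 6331 in ligated libraries at day 8. The day 15 sums were 32.2 to 175 in sham and 3539 to 27722 in ligated libraries. Of the 13 tested, 11 were called higher at day 8 and 13 at day 15, where 2.77% and 3.48% of all genes were. Among single genes, 1.97% had all ligated libraries above all sham libraries at day 8 and 2.38% at day 15. Fgb was at 0 in sham mice at day 8, and Fgg, Mat1a and Cyp3a11 at day 15. The 11 neutrophil markers summed to 117 to 1396 CPM and 781 to 2291 at day 8, and to 116 to 4708 and 608 to 2013 at day 15. Of the 8 tested, 3 were called higher at day 8, none at day 15 and 2 over both days. The shares of all genes called higher were 2.77%, 3.48% and 7.1% in that order. The 10 progenitor and stem cell markers, which can express Gata1, Klf1 and Tfrc, summed to 70.7 to 182 and 116 to 179 CPM at day 8 and to 148 to 352 and 130 to 230 at day 15, with Hoxa9 at 0 in 3 of the 4 groups and Tfr2 in sham mice at day 15. Of the 3 tested, none was called at either day and 1 was called lower over both days, where 3.5% of all genes were. The 12 macrophage markers summed to 51.6 to 113 CPM in sham and 125 to 264 in ligated libraries at day 8, which did not overlap, and to 60.8 to 235 and 98.2 to 264 at day 15. Clec4f was at 0 in ligated mice at day 8, and Marco and Vsig4 in sham mice at day 15. Of the 2 macrophage markers tested, 1 was called, Hmox1, the heme-degrading enzyme, which rose over both days (log2 1.34, SE 0.37, edgeR adjusted p = 0.0190). The 12 lymphocyte markers summed to 130 to 316 and 126 to 166 CPM at day 8 and to 92.5 to 282 and 107 to 218 at day 15. Both tested lymphocyte markers fell over both days, the B cell receptor genes Cd79a (log2 -1.18, SE 0.32, adjusted p = 0.0159) and Cd79b (-1.0, SE 0.31, adjusted p = 0.0368). Markers of mast cells, basophils and eosinophils (13), of which Gata1 is also a known factor, summed to at most 198 CPM, in a sham library at day 15, with the mast cell tryptase Tpsab1 at 0 in all 4 groups. Of these 13, only Prg2 passed the filter. It fell at day 15 (log2 -2.92, SE 0.73, edgeR adjusted p = 0.0166), where 1.07% of all genes were called lower. Prg2 was called neither at day 8 nor over both days.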

How the data were processed

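Plasma vesicle RNA of 24 mice was sequenced; the deposited values are expected counts, made with STAR and RSEM per the submitters' processing notes, which give no versions and name the build hg38, while the gene IDs are of mouse (21860 of 21960 are in GENCODE M21, GRCm38). The values are whole numbers. The strand setting and any filter: not given in the sources used here. Groups and library numbers came from the sample titles.

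Genes with low counts were removed with filterByExpr (minimum count 10, minimum total 15), leaving 4112. All 24 libraries were fitted together in edgeR 4.0.16 (TMM, quasi-likelihood F-test) in R 4.3.3, with Benjamini-Hochberg adjustment over all genes and a threshold of 0.05. Each SE of an edgeR fit was derived as the absolute log2 fold change divided by the square root of the F statistic. A looser filter (at least 1 count in 12 or more libraries, 11455 genes) was added after seeing that 3 of the 10 genes did not pass and that the unfiltered fit gave far smaller p-values to the same genes. The fit was tested on simulated data. Lengths are of the longest APPRIS principal transcript. DESeq2 1.42.0, other scalings and filters, a block on library number and leaving out each library were alternatives. Replicate libraries of each group differed beyond counting noise (lowest chi-square per degree of freedom 1.74). At day 8 the deviations of libraries with the same number correlated in 6 of 6 pairs (r 0.165 to 0.327), at day 15 in 1 of 6 (r over 0.1). The block rests on this check, not on the labels, and libraries with different numbers were not compared. The genes and lists were chosen with earlier results of these data known. Named beside the 10 genes are, per pathway list, the called gene with the smallest p at each day, markers at 0 and, for each tested gene, the most alike gene. Bach1, Tcf3, Hmox1, Cd79a, Cd79b, Gp1bb, Pim1 and Prg2 were added after their values were seen. A gene that this rule names in the membrane list is not reported here.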

Additional observations from a re-analysis of the deposited data

Results flagged for a closer look

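In 40 sets of 6 libraries (10 genes in 4 groups), 2 held a library far from the others, and chance alone puts about 1 in 20 sets there. Ube2o was at 492 CPM in sham library 6 of day 8, the highest of its group, where that library was highest for 8 of the 10 genes. Xpo7 was at 76.4 CPM in ligated library 1 of day 15, the lowest of its group, and that library had the lowest share of globin counts of the 6 (4.14%).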

How the results depend on the processing

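The call is the adjusted p under 0.05 in each setting, and the causes of the changes below were not tested. Settings also change the share of all genes called higher. At day 8 it was 2.77% in the main fit, 1.03% with the looser filter, 1.26% on the globin scale and 4.11% with the replicate block. Over both days it was 7.1% in the main fit, 3.92% with the looser filter and 2.63% on the globin scale. For other settings, DESeq2 and no filter among them, the share is not given, so those counts cannot be set against it. Of the 10 genes, 2 were called at day 8; the count was 5 with DESeq2, 0 with library totals in place of TMM, 0 scaled to globin counts, 6 with no filter, 1 with the looser filter, 5 with a fit of the day 8 groups alone, 6 with the replicate block, 1 in libraries 1 to 3, 0 in libraries 4 to 6 and 0 to 4 without 1 library. Xpo7 was not among the 5 called in the fit of the day 8 groups alone (edgeR adjusted p = 0.0528). Bnip3l was not called at day 8 with the looser filter (edgeR adjusted p = 0.0650). At day 15, 1 was called, against 2 with no filter, 2 with the looser filter and 0 to 2 without 1 library. Over both days 6 were called, against 2 with library totals, 1 on the globin scale, 3 and 1 with libraries 1 to 3 or 4 to 6 of day 8, 8 with no filter, 7 with the looser filter (Trim58 included), 5 with DESeq2's size factors, 5 without Lars2 (Bpgm not called, adjusted p = 0.0521) and 4 to 7 without 1 library. In ligated mice over time, 0 were called, against 1 on the globin scale, 4 with no filter and 0 to 1 without 1 library (Ube2o without ligated library 3 of day 8). The difference between days and the sham comparison gave 0 in every setting run. With library totals the median of all genes moved to -0.25 and -0.22 at days 8 and 15, and with no filter at day 15 to 0.30.

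The sign turned for these log2 fold changes, none of them called: Gata1 at day 8 in libraries 1 to 3 (0.35) and without 1 library (-0.47 to 0.17); Nfe2 at day 8 on the globin scale (-0.086); Gata1 at day 15 on the globin scale (0.018) and without 1 library (-0.61 to 0.64); Slc25a37 at day 15 without 1 library (-0.0012 to 0.82); Gata1 over both days with libraries 1 to 3 (0.0098) and without 1 library (-0.43 to 0.20); Klf1 over both days with library totals (-0.029), globin scaling (-0.11), libraries 4 to 6 (-0.069) and without 1 library (-0.14 to 0.53); and Bnip3l between days in ligated mice on the globin scale (0.085). The block was not applied to day 15 against day 8 within sham or within ligated mice. Libraries with the same number are different mice within a day as well as between days, and the labels give no pairing. The replicate block changed no other call among these genes than those given. Depth limits Gata1, Klf1 and Trim58, which have 65 to 149 counts in all.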
